A study of Mus musculus with 2 samples.

Results

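The genes examined here encode the cargo-moving machinery of the cilium: the intraflagellar transport (IFT) complexes IFT-B and IFT-A, the dynein-2 motor, the BBSome, small GTPases of the ARL family, and the transition zone. They were chosen by name as a list of 38 genes, of which 37 were found among the 31053 genes of the feature list (Tctn2 was not analysed here): 11 IFT-B, 6 IFT-A, 2 dynein-2, 6 BBSome, 3 ARL and 9 transition zone genes. Single-cell RNA was measured from mouse kidney in 2 libraries, 1 of each genotype, from mice of 5 weeks. The control library is labelled WT, and the other is labelled Kif3aΔTub, with a knockout genotype. Kif3a encodes a subunit of kinesin-2, the motor that drives IFT toward the ciliary tip. The labels do not give the Cre line, the cells it acts in or the deleted exons, and they do not say how many mice went into a library. A single kidney of each mouse was dissociated with a cold-active protease, red cells were lysed and dead cells were removed before capture with 10x Chromium 3′ v3 chemistry. With 1 library per genotype, no difference below has a replicate check, no test was possible, and every range given in parentheses is a 95% interval that covers counting error only.

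A primary cilium is a single antenna-like protrusion that most kidney tubule cells extend into the urine, and it is built and maintained by IFT. Kinesin-2 carries trains of IFT-B and IFT-A outward along the axoneme, and dynein-2 returns them to the base. The BBSome rides on these trains and takes signalling receptors out of the cilium, while ARL3 handles lipid-modified ciliary proteins and ARL6 recruits the BBSome to membranes. The transition zone is the gate at the ciliary base, made of the NPHP and MKS modules, and mutations in many of these genes cause cystic or nephronophthisis-type kidney disease. Most circulating leukocytes do not carry a primary cilium, and intercalated cells of the collecting duct are known to lack one, whereas principal cells are ciliated.

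Many of these genes are known targets of RFX transcription factors, which bind the X-box, so the promoters were searched for it. RefSeq promoters of build GRCm38.p6, from 250 bases before to 50 after the start of a gene, were matched by symbol for 32 of the 37 genes. The RFX core site GTTGCC, counted on both strands, lay in 16 of 32 of them, against 3821 of 27025 promoters of all genes (14.1%). The full X-box was searched on both strands as GTNRCC and RGYAAC with up to 3 bases between them (N any base, R A or G, Y C or T). This pattern can match without the exact core site. It lay in 3 of 32 (9.38%), against 474 of 27025 (1.75%), and in these 3 genes it contains the core site. These stretches are shown because the core site and the X-box were found in a larger share of the members' promoters than of all promoters, with the match in capitals and the 3 genes with a full X-box first.
Ift57, X-box, chr16:49699187-49699240, plus strand: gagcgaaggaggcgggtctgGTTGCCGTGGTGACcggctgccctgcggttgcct
Ift57, second X-box, chr16:49699214-49699266, plus strand: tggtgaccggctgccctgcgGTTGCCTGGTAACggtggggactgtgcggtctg
Bbs1, X-box, chr19:4906605-4906634, minus strand: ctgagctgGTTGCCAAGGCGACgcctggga
Tctn1, X-box, chr5:122264411-122264432, minus strand: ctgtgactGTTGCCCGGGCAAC
Ift27, core site, chr15:78174082-78174110, minus strand: gagaaggcgggttgatgatgGTTGCCagg
B9d1, core site, chr11:61505152-61505181, plus strand: cgagagcctcctGGCAACagcgcgcggcct
Dync2h1, core site, chr9:7177009-7177034, minus strand: gcgacggagcttGGCAACtgctgagt
The last 2 read GGCAAC, the core site on the other strand. The Dync2h1 stretch follows a RefSeq start that lies inside the GENCODE span of the gene, whose own start is at chr9:7184446. Ift57 is a subunit of IFT-B, Bbs1 of the BBSome, and Tctn1 of the MKS module. A match describes the letters of the window and is neither a binding site nor a cause.

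After removal of cells under 500 UMIs, under 200 genes or at 50% or more mitochondrial UMIs, and of doublets, 4308 WT and 7057 Kif3aΔTub cells were kept, with 42372888 and 78919990 UMIs and medians of 7776 and 7780 UMIs per cell. The libraries stood apart in the median share of mitochondrial UMIs, 26.8% in WT and 7.53% in Kif3aΔTub, and shared 16 cell barcodes. They stood apart in clustering too, since most tubule clusters held cells of mainly 1 library: in thick ascending limb-like cells cluster 6 held 328 WT and 23 Kif3aΔTub cells, and cluster 22 held 12 and 562. Comparisons were limited to the 6 classes with 100 or more cells from both libraries: proximal tubule-like, thick ascending limb-like, distal convoluted and connecting tubule-like, principal-like, intercalated-like and endothelium-like cells. Class names come from marker genes, with names set for clusters after these were seen. Genotype and library cannot be told apart in any of them.

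Kif3a, the gene the label names, was lower in Kif3aΔTub in the collecting duct and thick ascending limb-like classes and not in the proximal tubule-like class. In principal-like cells it stood at 22.6 CPM in WT (25 UMIs, 14.6 to 33.4) and 10.5 CPM in Kif3aΔTub (182 UMIs, 9.06 to 12.2), and in intercalated-like cells at 15.3 CPM in WT (48 UMIs, 11.3 to 20.2) and 8.20 CPM in Kif3aΔTub (32 UMIs, 5.61 to 11.6). It was thus lower in Kif3aΔTub in both collecting duct classes, with log2 ratios of -1.15 (-1.73 to -0.46) and -1.15 (-1.85 to -0.48) relative to the median gene of the class. In thick ascending limb-like cells it was at 11.6 CPM in WT and 10.5 CPM in Kif3aΔTub. The median gene there had a log2 ratio of 0.46, so Kif3a was lower relative to it as well, with no interval given here. In distal convoluted and connecting tubule-like cells Kif3a was at 13.7 CPM in WT and 18.8 CPM in Kif3aΔTub, where the median gene had a log2 ratio of 0.51. It was higher in Kif3aΔTub proximal tubule-like cells, at 8.28 CPM in WT and 13.0 CPM in Kif3aΔTub, with 0.46 (0.14 to 0.77) relative to the median gene. In endothelium-like cells it was at 17.4 CPM in WT and 25.1 CPM in Kif3aΔTub, with 0.46 (-0.47 to 1.61). The 3′ tags count the end of the transcript and the deleted exons are not in the labels, so these values do not check the knockout.

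Summed over the 37 genes, the level in wild type cells was lowest in proximal tubule-like and highest in principal-like cells. Levels are UMIs per 1000000 UMIs of the class (CPM). They stood at 661 CPM (651 to 669.7) in proximal tubule-like, 775 CPM (733 to 819) in distal convoluted and connecting tubule-like, 800.4 CPM (732 to 873) in endothelium-like, 815 CPM (784 to 847) in thick ascending limb-like, 909 CPM (876 to 943) in intercalated-like and 1192 CPM (1129 to 1258) in principal-like cells. The intervals of the distal convoluted and connecting tubule, endothelium and thick ascending limb classes overlapped one another, and the other steps of this order did not overlap. Mitochondrial UMIs take part of every total, and they differed between classes, with medians from 5.81% in endothelium-like to 36.5% in distal convoluted and connecting tubule-like cells. Per 1000000 non-mitochondrial UMIs the endothelium-like class was lowest (877), proximal tubule-like cells followed (936), and principal-like cells stayed highest (1422). Taken singly, 20 of the 37 genes had their highest WT level among the 6 classes in principal-like cells, and 21 did so in Kif3aΔTub.

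In Kif3aΔTub the same set stood at 697 CPM (680.2 to 713) in proximal tubule-like, 714 CPM (675 to 755) in endothelium-like, 967 CPM (939 to 996) in distal convoluted and connecting tubule-like, 1046 CPM (1014 to 1078) in intercalated-like, 1062 CPM (1039 to 1086) in thick ascending limb-like and 1332 CPM (1315 to 1349) in principal-like cells. Here proximal tubule-like and endothelium-like cells overlapped, as did intercalated-like and thick ascending limb-like cells. Injured tubule-like cells, found with 671 cells in this library and 1 in WT, were at 1316 CPM (1294 to 1338), which overlapped the principal-like class. In their cluster 6 of 9 injured tubule markers passed, and so did all 8 principal markers, so it may hold principal-like cells as well. All 8 principal markers also passed in the unnamed clusters 12 and 25, with 571 and 294 Kif3aΔTub cells. The classes that hold leukocytes were lowest, at 337 CPM (318 to 357) in macrophage-like, 299 CPM (270.2 to 330.2) in monocyte-like and 394 CPM (278 to 540.1) in neutrophil-like cells, and urothelium-like cells were at 639 CPM (592 to 688). Macrophage-like cells thus held 0.317 times and monocyte-like cells 0.281 times the level of all cells of the library. In WT these classes had too few cells to describe.

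**Figure D1:**
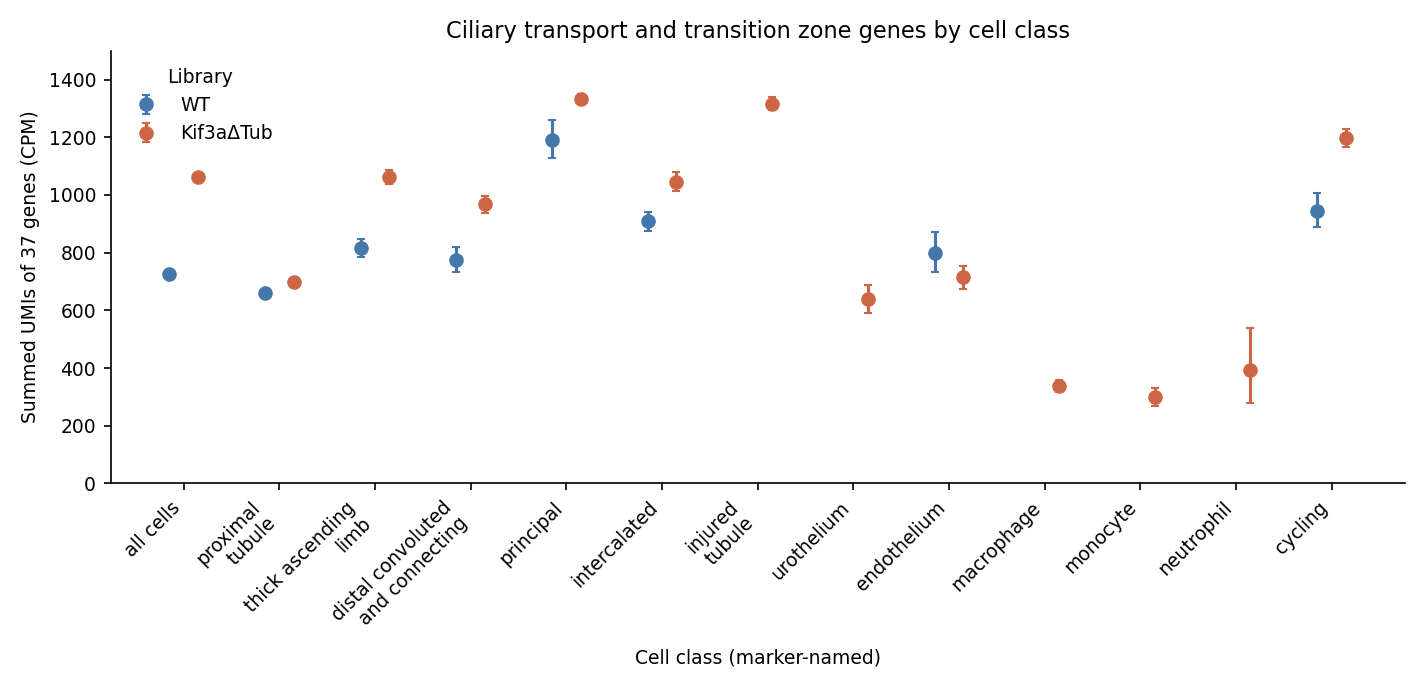
Summed UMIs of the 37 genes (CPM, vertical axis) in each cell class (horizontal axis) of the WT library (blue) and the Kif3aΔTub library (orange); bars are 95% Poisson intervals of the sum, and a class is drawn where a library has at least 50 cells. Principal-like and injured tubule-like cells are highest and macrophage-like and monocyte-like cells lowest.

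Members differed in how far principal-like cells stood above macrophage-like cells. Free RNA was not measured, so whether a level in macrophage-like cells came from free RNA or from the cells themselves was not tested. Ift43, an IFT-A subunit, was at 16.4 CPM in macrophage-like cells and at 114 CPM in principal-like cells of the same library. Ift20, an IFT-B subunit that is also known to act at the Golgi, was at 66.0 CPM in macrophage-like and 128 CPM in principal-like cells. A UMI of Ift43 was found in 7.47% (5.61 to 9.70) of macrophage-like cells at a median of 4237 UMIs, and in 70.1% (67.3 to 72.8) of principal-like cells at a median of 11188. With each cell thinned to 1000 UMIs these shares were 0.663% (0.181 to 1.69) and 11.5% (9.69 to 13.6). The gap between the classes was therefore there at equal depth. For Ift20 the thinned shares were 5.80% (4.08 to 7.98) and 12.5% (10.6 to 14.6), a smaller gap.

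Between the genotypes, the set was higher in CPM in Kif3aΔTub in all 5 tubule classes and lower in endothelium-like cells. The median gene of a class, over genes with at least 100 UMIs, had a log2 ratio (Kif3aΔTub over WT) of 0.20 in proximal tubule-like, 0.46 in thick ascending limb-like, 0.51 in distal convoluted and connecting tubule-like, 0.03 in principal-like, 0.26 in intercalated-like and 0.02 in endothelium-like cells. All ratios below are relative to it. On that scale the set was lower in Kif3aΔTub by small amounts in 4 classes: the log2 ratio was -0.12 (-0.16 to -0.08) in proximal tubule-like, -0.08 (-0.14 to -0.01) in thick ascending limb-like, -0.19 (-0.28 to -0.10) in distal convoluted and connecting tubule-like and -0.19 (-0.34 to -0.03) in endothelium-like cells. In intercalated-like cells it was -0.06 (-0.13 to 0.01), an interval that holds the median gene. In principal-like cells it was higher, at 0.13 (0.05 to 0.22). Without that centring the ratios of proximal tubule-like, thick ascending limb-like and distal convoluted and connecting tubule-like cells were 0.08, 0.38 and 0.32, so their sign depended on the scale. Totals without mitochondrial and the top 50 genes, not centred, gave 0.03 in thick ascending limb-like cells. With doublets kept, the endothelium-like set was at 0.01.

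The clusters behind each class differed between the libraries, and the set differed between clusters. Cluster 8, the principal-like cluster with 135 WT and 111 Kif3aΔTub cells, was at 1206 CPM (1139.6 to 1275) in WT and 1103 CPM (1044 to 1164) in Kif3aΔTub. All 8 principal markers passed in cluster 8, and so did 8 markers of the distal convoluted and connecting tubule list. Calb1 and S100g of that list were among its leading genes, so it may hold connecting tubule-like cells as well. Cluster 23, with 9 WT and 984 Kif3aΔTub cells, was at 1349 CPM (1331 to 1367). Within cluster 8 alone, an alternative chosen after the data were seen, the log2 ratio was -0.11 (-0.22 to 0.01), so the higher value of the principal-like class rests on cluster 23. Intercalated-like cells were spread over both libraries in unlike shares, with 118 WT and 294 Kif3aΔTub cells in cluster 7 and 164 and 147 in cluster 10. Cluster 7, led by Aqp6 and Slc4a1, was at 1007 CPM (955 to 1062) in WT and 1124 CPM (1083 to 1165) in Kif3aΔTub. Cluster 10, led by Hmx2 and Slc26a4, was at 834 CPM (792 to 878) and 891 CPM (841 to 944). Cluster 7 stood above cluster 10 in both libraries. Endothelium-like cells were shared too, with 62 and 245 cells in cluster 9 and 91 and 229 in cluster 14. Among proximal tubule-like cells WT lay mainly in clusters 0, 1, 4 and 11 and Kif3aΔTub in cluster 2. The single shared cluster 3, whose cells were shallow, gave a log2 ratio of -0.01 (-0.27 to 0.24). Distal convoluted and connecting tubule-like cells came mainly from cluster 5 in WT, led by Pvalb and Slc12a3, and from cluster 13 in Kif3aΔTub, led by Slc12a3 and Klk1. In cluster 13, 7 principal markers passed too.

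**Figure D2:**
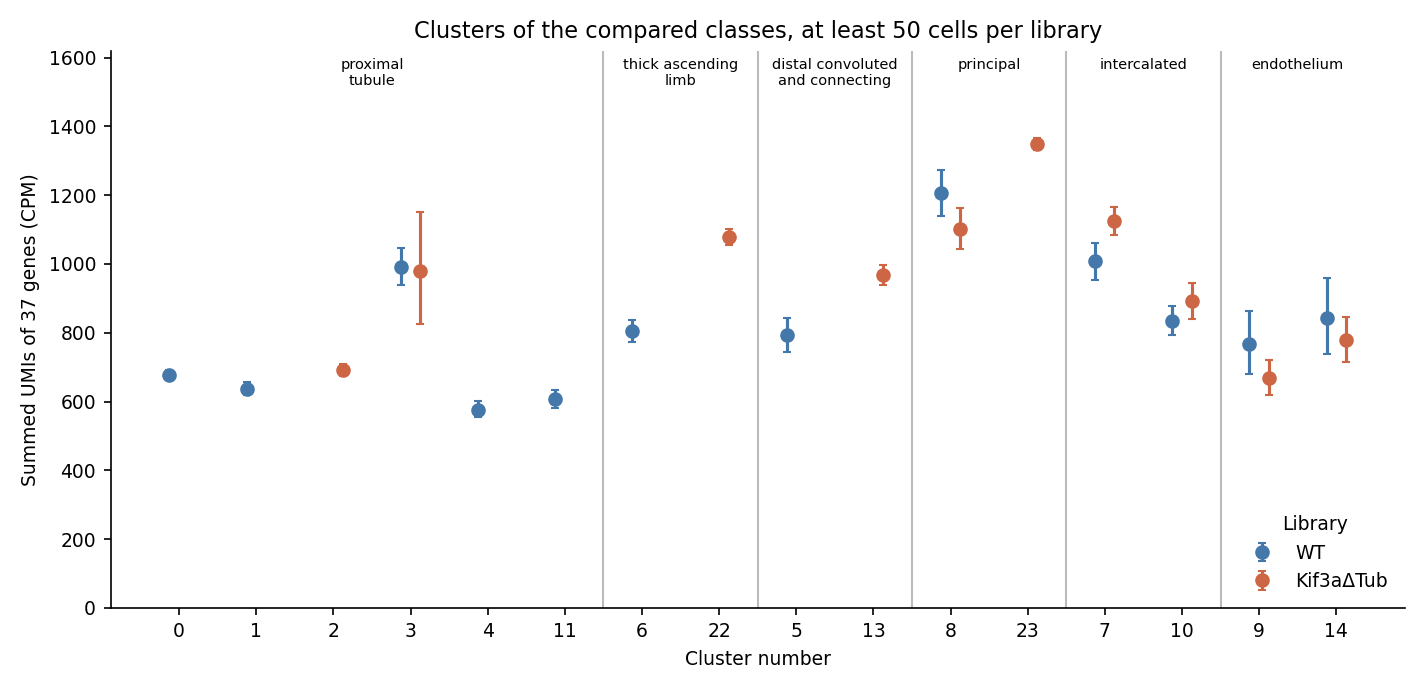
Summed UMIs of the 37 genes (CPM, vertical axis) in each cluster (number on the horizontal axis, grouped by class) with at least 50 cells of a library; WT is blue, Kif3aΔTub orange, and bars are 95% Poisson intervals. Only clusters 3, 8, 7, 10, 9 and 14 have a point for both libraries, and in cluster 8 the Kif3aΔTub point is the lower one.

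Gene by gene, most measured members lay within 1.5-fold of the median gene in each class. A member counted as measured with at least 20 UMIs over both libraries, and every share of all genes uses the same floor. In proximal tubule-like cells 1 members were past 1.5-fold higher and 6 past 1.5-fold lower of 37 measured, against 16.0% and 12.8% of all genes, and the median member was at -0.14. In thick ascending limb-like cells 4 members were past 1.5-fold higher and 4 past 1.5-fold lower of 36 measured, against 22.1% and 19.2% of all genes, and the median member was at 0.01. In distal convoluted and connecting tubule-like cells 1 members were past 1.5-fold higher and 6 past 1.5-fold lower of 36 measured, against 20.2% and 20.0% of all genes, and the median member was at -0.23. In principal-like cells 6 members were past 1.5-fold higher and 0 past 1.5-fold lower of 37 measured, against 17.5% and 16.4% of all genes, and the median member was at 0.05. In intercalated-like cells 5 members were past 1.5-fold higher and 1 past 1.5-fold lower of 35 measured, against 13.8% and 13.2% of all genes, and the median member was at 0.03. In endothelium-like cells 1 members were past 1.5-fold higher and 6 past 1.5-fold lower of 22 measured, against 12.3% and 11.4% of all genes, and the median member was at -0.16, where 15 members had under 20 UMIs. All-gene medians on this scale lay between -0.01 and 0.02. Over the 6 classes 13 members were past the fold higher in at least 1 class, 15 lower in at least 1, 5 of them both in different classes, and 14 in neither direction anywhere.

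**Figure D3:**
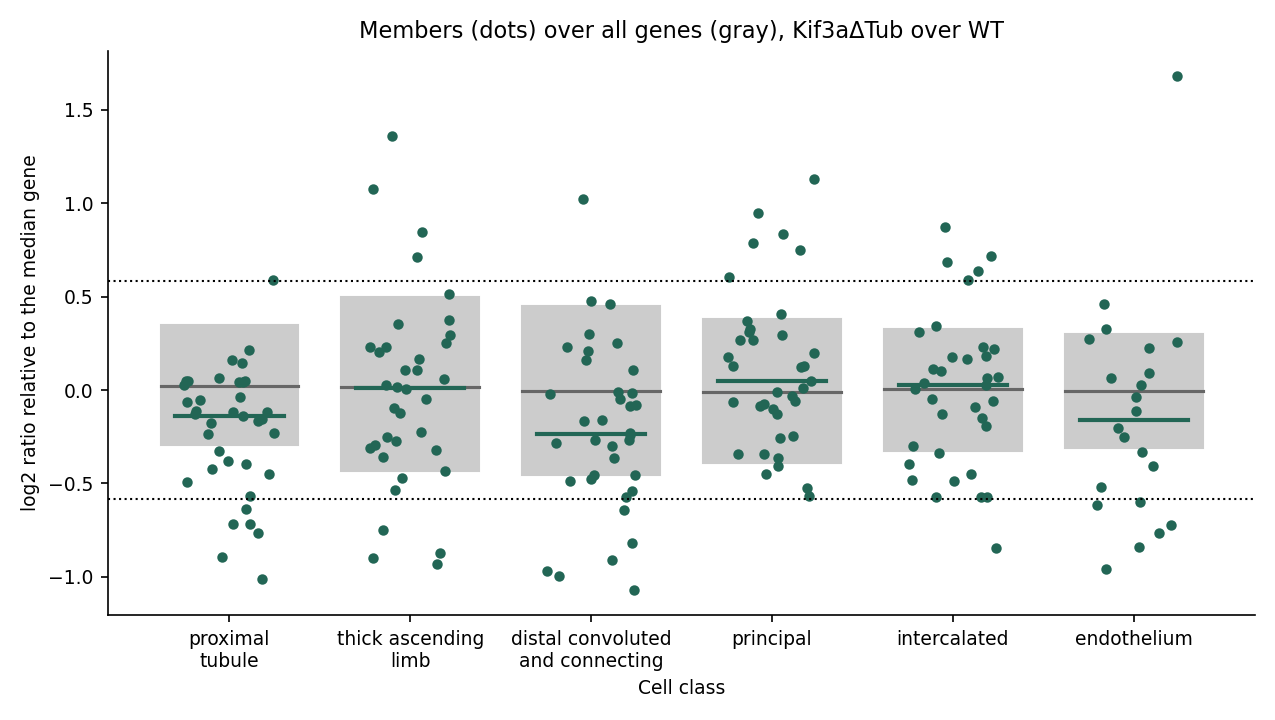
Log2 ratio of each measured member (dots; Kif3aΔTub over WT, relative to the median gene) by class, with the members' median (green line), the middle 50% of all genes with at least 20 UMIs (gray box) and their median (gray line); dotted lines mark 1.5-fold. The median member is at -0.23 in distal convoluted and connecting tubule-like cells and at 0.05 in principal-like cells.

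IFT-B, the complex that kinesin-2 pulls outward, varied little as a whole. Its summed UMIs gave log2 ratios of -0.06 (-0.12 to 0.004) in proximal tubule-like, -0.07 (-0.17 to 0.04) in thick ascending limb-like, 0.02 (-0.11 to 0.15) in principal-like and -0.15 (-0.39 to 0.08) in endothelium-like cells, all intervals holding the median gene. In distal convoluted and connecting tubule-like and intercalated-like cells the sums were lower, at -0.19 (-0.33 to -0.04) and -0.14 (-0.25 to -0.04). Of the 11 members, 0 were past 1.5-fold in the distal convoluted and connecting tubule-like class, against 20.2% of all genes higher and 20.0% lower. In the other classes 0 or 1 were higher, against 12.3% to 22.1% of all genes, and 0 to 3 lower, against 11.4% to 19.2%.

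Ift20, which also works at the Golgi to sort ciliary membrane proteins, accounted for much of the IFT-B sum. In intercalated-like cells it stood at 175 CPM in WT (551 UMIs, 161 to 190.4) and 150.2 CPM in Kif3aΔTub (586 UMIs, 138 to 163). The log2 ratio was -0.48 (-0.65 to -0.31), and it was -0.43 (-0.62 to -0.24) in thick ascending limb-like, -0.54 (-0.78 to -0.28) in distal convoluted and connecting tubule-like and -0.25 (-0.47 to -0.01) in principal-like cells. In proximal tubule-like cells it was the other way, at 88.3 CPM in WT (2697 UMIs, 85.0 to 91.7) and 112 CPM in Kif3aΔTub (1092 UMIs, 106 to 119), with 0.15 (0.04 to 0.25). Thinned to 1000 UMIs per cell the principal ratio was 0.15 (-0.54 to 1.03), and a mitochondrial limit of 25% put the proximal tubule ratio at -0.02 (-0.14 to 0.10). Its raw level was thus near equal in WT and Kif3aΔTub in the thick ascending limb (98.1 and 100.2 CPM) while the median gene there was higher. Without centring its ratio in that class was 0.03.

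Ift27, a small GTPase subunit that helps the BBSome leave the cilium, was higher in both collecting duct classes. It stood at 18.1 CPM in WT (57 UMIs, 13.7 to 23.5) and 40.0 CPM in Kif3aΔTub (156 UMIs, 34.0 to 46.8) in intercalated-like cells, with 0.87 (0.43 to 1.34), and at 33.4 CPM in WT and 52.5 CPM in Kif3aΔTub in principal-like cells, with 0.61 (0.15 to 1.14). Thinned to 1000 UMIs per cell the principal ratio was -0.72 (-1.73 to 0.64), a wide interval that held the median gene. In cluster 8 alone the principal value was 0.21 (-0.43 to 0.87). The intervals of the 2 libraries did not overlap in intercalated-like cells. Its promoter holds the core site printed above. Ift27 was near the median gene in proximal tubule-like and thick ascending limb-like cells, at 0.05 and 0.02.

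Ift46, a core IFT-B subunit, was higher in thick ascending limb-like cells, at 9.09 CPM in WT (29 UMIs, 6.09 to 13.1) and 20.8 CPM in Kif3aΔTub (153 UMIs, 17.6 to 24.3), with 0.71 (0.15 to 1.36). Its level was highest in intercalated-like cells of both libraries, at 42.9 CPM in WT and 60.5 CPM in Kif3aΔTub. Ift52, which sits beside it in the complex, was lower in intercalated-like cells, at 39.4 CPM in WT and 35.9 CPM in Kif3aΔTub, with -0.40 (-0.76 to -0.04). The pair thus differed in opposite directions in different classes, though Ift52 stayed within 1.5-fold of the median gene in intercalated-like cells. Each was also within 1.5-fold in the other one's class, at -0.09 and 0.23.

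In proximal tubule-like cells the 2 members of IFT-B past 1.5-fold lower were Ift172 and Ift80, peripheral subunits of the complex. Ift172 stood at 7.96 CPM in WT (243 UMIs, 6.99 to 9.02) and 5.34 CPM in Kif3aΔTub (52 UMIs, 3.99 to 7.01), with -0.76 (-1.24 to -0.34), and Ift80 at 7.86 CPM in WT and 5.44 CPM in Kif3aΔTub, with -0.72 (-1.19 to -0.30). Ift172 was also lower in endothelium-like cells, at 37.9 CPM in WT and 19.9 CPM in Kif3aΔTub, with -0.96 (-1.74 to -0.13). Ift88, the gene disrupted in a classic polycystic kidney mouse, was at 17.7 CPM in WT and 14.9 CPM in Kif3aΔTub in proximal tubule-like cells, with -0.45 (-0.73 to -0.19), and between 0.03 and -0.46 in the others. Against WT clusters 1 and 4 alone the ratios were -0.39 (-0.95 to 0.15) for Ift172 and -0.39 (-0.94 to 0.15) for Ift80, both within 1.5-fold and with the median gene inside the interval. Within cluster 3 Ift172 had 14 and 1 UMIs and Ift80 7 and 2, too few to compare. In endothelium-like cells Ift74 and Ift81, the coiled-coil pair that holds tubulin cargo, were past 1.5-fold lower with intervals that held the median gene, at -0.72 (-1.59 to 0.22) and -0.84 (-2.04 to 0.49). Ift22 and Ift57 were past the fold in 0 classes.

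IFT-A, the complex that brings receptors into the cilium and partners dynein-2 on the way back, contained members that differed in opposite directions. Ift43 was higher in Kif3aΔTub in 3 tubule classes, and Ift122 was lower in 3. The plot of 6 members by class shows both. On mm10 with GENCODE vM21 gene models, Ift43 lies at chr12:86082541-86162459, Ift122 at chr6:115853470-115926699, Dync2h1 at chr9:6928503-7184446, Arl3 at chr19:46531096-46573198, Ift27 at chr15:78159463-78174107 and B9d1 at chr11:61505144-61512931, all as protein-coding genes.

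Ift43 is a small peripheral IFT-A subunit. In thick ascending limb-like cells it stood at 30.7 CPM in WT (98 UMIs, 24.9 to 37.4) and 89.6 CPM in Kif3aΔTub (660 UMIs, 82.9 to 96.7), and in distal convoluted and connecting tubule-like cells at 24.9 CPM in WT (40 UMIs, 17.8 to 33.9) and 72.9 CPM in Kif3aΔTub (338 UMIs, 65.4 to 81.1). The libraries' intervals did not overlap in either class, and the log2 ratios were 1.08 (0.78 to 1.40) and 1.02 (0.56 to 1.55). A UMI of Ift43 was found in 23.2% (18.8 to 28.1) of WT and 54.4% (50.2 to 58.4) of Kif3aΔTub thick ascending limb-like cells, and in 2.13% (0.862 to 4.35) and 6.86% (4.95 to 9.23) of them at 1000 UMIs per cell.

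In principal-like cells Ift43 stood at 57.8 CPM in WT (64 UMIs, 44.5 to 73.9) and 114 CPM in Kif3aΔTub (1973 UMIs, 109 to 119), with 0.95 (0.60 to 1.34). Within cluster 8 it had 61 and 64 UMIs, 59.1 and 53.6 CPM, and a log2 ratio of -0.12 (-0.65 to 0.41), so in this class the higher value was that of cluster 23. In intercalated-like cells it was at 61.0 CPM in WT and 91.0 CPM in Kif3aΔTub, with 0.31 (0.06 to 0.58). It was near the median gene in proximal tubule-like and endothelium-like cells, at 0.03 and -0.04. Injured tubule-like cells of Kif3aΔTub held 140.1 CPM.

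Ift122, a core IFT-A subunit, was below the median gene in all 6 classes. It stood at 25.1 CPM in WT (768 UMIs, 23.4 to 27.0) and 14.3 CPM in Kif3aΔTub (139 UMIs, 12.0 to 16.9) in proximal tubule-like cells, with -1.01 (-1.29 to -0.75). The size of this ratio depended on which WT clusters were taken. Against WT clusters led by Slc5a12, at 18.6 CPM, it was -0.60 (-0.90 to -0.31). Against WT clusters 1 and 4 alone, at 37.1 CPM, it was -1.61 (-1.91 to -1.34). Ift122 was at 38.2 CPM in WT (122 UMIs, 31.8 to 45.7) and 28.8 CPM in Kif3aΔTub (212 UMIs, 25.04 to 32.9) in thick ascending limb-like cells, with -0.87 (-1.20 to -0.54), and in distal convoluted and connecting tubule-like cells at 23.7 CPM in WT and 18.1 CPM in Kif3aΔTub, with -0.91 (-1.47 to -0.30). Thinned to 1000 UMIs per cell, which leaves few UMIs of a low gene, its proximal tubule ratio was 0.10 (-0.70 to 0.82). In principal-like, intercalated-like and endothelium-like cells its intervals held the median gene, at -0.45, -0.19 and -0.11.

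Ttc21b, the IFT-A subunit also known as IFT139, was lower in proximal tubule-like cells, at 11.8 CPM in WT and 9.14 CPM in Kif3aΔTub, with -0.56 (-0.92 to -0.23). Against WT clusters 1 and 4 alone, which have Kap among their leading genes, its ratio was 0.21 (-0.25 to 0.68). That interval held the median gene, so its lower value depended on which WT clusters were taken. Ift140, Wdr19 and Wdr35, the remaining IFT-A subunits, had no interval that left out the median gene in a class where they were measured. Ift140 had 3 UMIs in WT and 121 in Kif3aΔTub principal-like cells, a log2 ratio of 1.13 (-0.24 to 3.64). Summed, IFT-A was lower in proximal tubule-like cells, at -0.32 (-0.44 to -0.21), and higher in thick ascending limb-like and principal-like cells, at 0.21 (0.04 to 0.39) and 0.44 (0.22 to 0.66), and these sums combine Ift43 with the others.

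**Figure D4:**
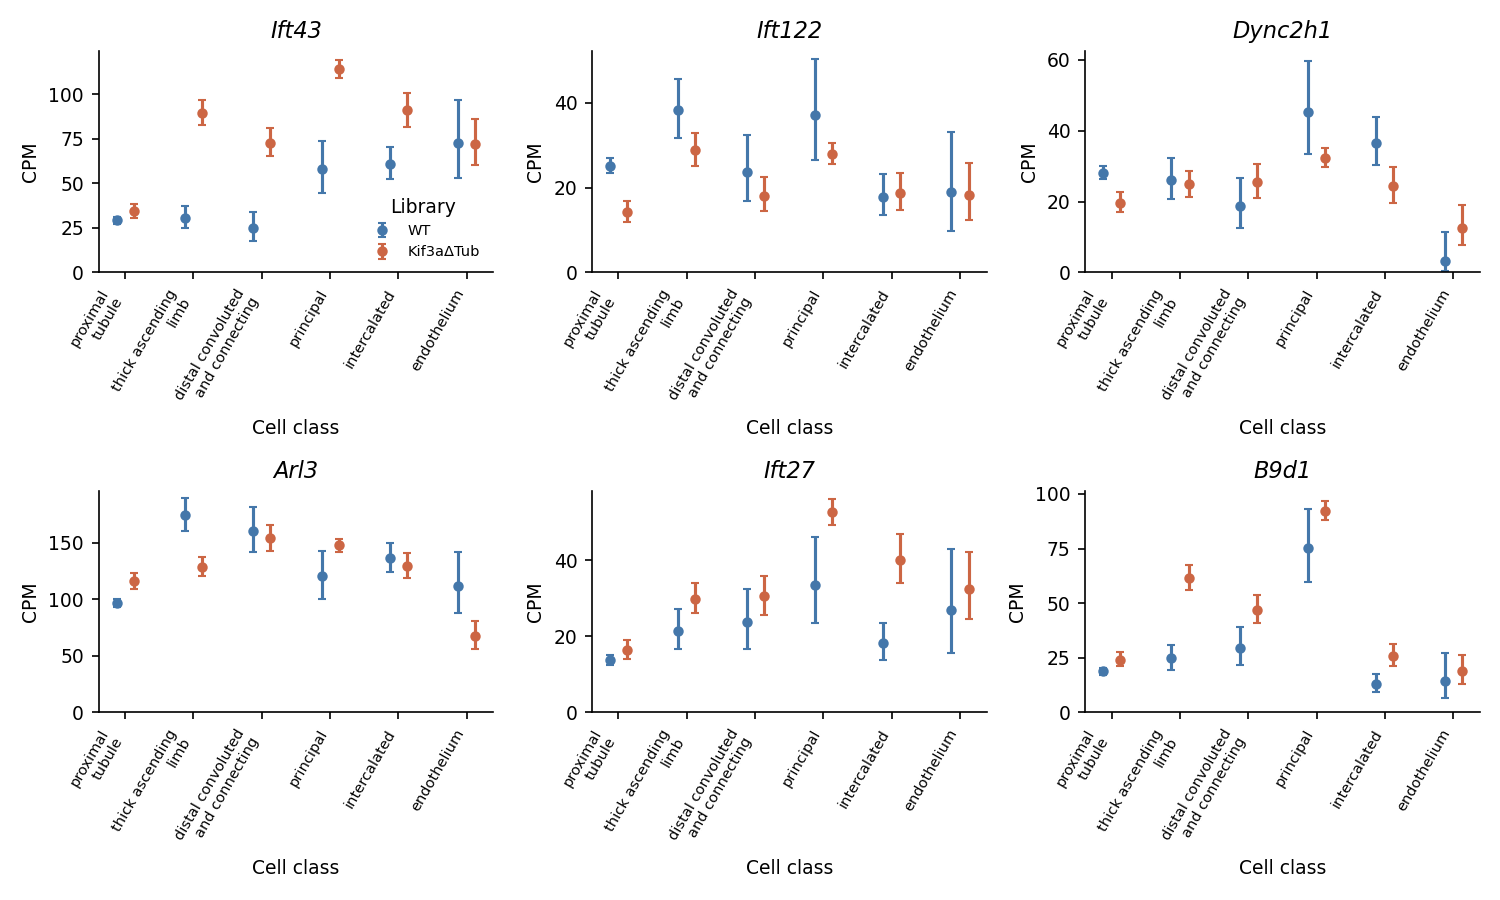
Level (CPM, vertical axes) of Ift43, Ift122, Dync2h1, Arl3, Ift27 and B9d1 in the 6 compared classes (horizontal axes) of WT (blue) and Kif3aΔTub (orange), with 95% Poisson intervals. Ift43 is higher in Kif3aΔTub in the thick ascending limb-like, distal convoluted and connecting tubule-like and principal-like classes, and the Ift122 intervals of the libraries overlap in those 3 classes and not in the proximal tubule-like class.

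The 2 dynein-2 members, motor subunits for the return trip, also differed from each other. Dync2h1, the heavy chain, was lower in Kif3aΔTub in 4 tubule classes. It stood at 28.1 CPM in WT (858 UMIs, 26.2 to 30.0) and 19.6 CPM in Kif3aΔTub (191 UMIs, 16.9 to 22.6) in proximal tubule-like cells, with -0.72 (-0.95 to -0.49), and at 36.6 CPM in WT (115 UMIs, 30.2 to 43.9) and 24.4 CPM in Kif3aΔTub (95 UMIs, 19.7 to 29.8) in intercalated-like cells, with -0.85 (-1.25 to -0.44). The intervals of the libraries did not overlap in proximal tubule-like or in intercalated-like cells. The ratio was -0.52 (-0.93 to -0.06) in principal-like and -0.53 (-0.91 to -0.14) in thick ascending limb-like cells, and -0.08 (-0.65 to 0.56) in distal convoluted and connecting tubule-like cells. Cluster 8 alone gave -0.67 (-1.34 to -0.02). After thinning to 1000 UMIs the thick ascending limb and intercalated ratios were 0.81 (-0.65 to 2.96) and 0.18 (-0.93 to 1.52). Both of these wide intervals held the median gene. In endothelium-like cells Dync2h1 had 2 and 22 UMIs, a ratio of 1.68 (-0.06 to 5.10).

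Dync2li1, the light intermediate chain of the same motor, was higher in the collecting duct classes. It was at 24.8 CPM in WT (78 UMIs, 19.6 to 30.9) and 46.4 CPM in Kif3aΔTub (181 UMIs, 39.9 to 53.7) in intercalated-like cells, with 0.64 (0.25 to 1.04), and at 61.5 CPM in WT and 81.4 CPM in Kif3aΔTub in principal-like cells, with 0.37 (0.03 to 0.75). In intercalated-like cells the heavy chain and the light intermediate chain therefore lay on opposite sides of the median gene. Both libraries share clusters 7 and 10 of this class, but in unlike proportions. Ratios of members within either cluster alone are not given here, and the part of these proportions in the members' ratios was not tested. In proximal tubule-like cells Dync2li1 was at 38.9 CPM in WT and 39.4 CPM in Kif3aΔTub, with -0.18 (-0.35 to -0.01).

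BBSome genes, whose products form the receptor-export coat and cause Bardet-Biedl syndrome when mutated, had few UMIs in every class. Summed, the 6 were lower in distal convoluted and connecting tubule-like cells, at 72 UMIs in WT (44.8 CPM) and 177 in Kif3aΔTub (38.2 CPM), with -0.74 (-1.15 to -0.33). There 5 of the 6 were past 1.5-fold lower, against 20.0% of all genes, while no single interval left out the median gene: the values ran from -1.07 for Bbs9 to -0.46 for Bbs4. Over all members of the class, the 6 past the fold lower became 2 with a minimum of 50 UMIs, 2 at clustering resolution 0.5 and 0 without centring. Shares of all genes at those settings are not given here. WT cells of that class came mainly from cluster 5 and Kif3aΔTub cells from cluster 13.

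Bbs1 was lower in proximal tubule-like cells, at 5.21 CPM in WT (159 UMIs, 4.43 to 6.08) and 3.18 CPM in Kif3aΔTub (31 UMIs, 2.16 to 4.52), with -0.89 (-1.51 to -0.35). Bbs1 recognises the ciliary sorting signal of receptors, and its promoter holds a full X-box. Against WT clusters 1 and 4 alone it stood at 3.21 CPM in WT and 3.18 CPM in Kif3aΔTub, with -0.25 (-0.996 to 0.49), an interval that holds the median gene. Bbs2 was lower in thick ascending limb-like cells, at 11.6 CPM in WT (37 UMIs, 8.16 to 16.0) and 8.42 CPM in Kif3aΔTub (62 UMIs, 6.46 to 10.8), with -0.93 (-1.53 to -0.30), and at 7.73 CPM in WT and 6.27 CPM in Kif3aΔTub in proximal tubule-like cells, with -0.49 (-0.93 to -0.09). Bbs2 and Bbs7 were past 1.5-fold higher in principal-like cells, but from 7 and 3 WT UMIs, with 0.79 (-0.19 to 2.21) and 0.75 (-0.63 to 3.27). Bbs7 had its highest level in proximal tubule-like cells, at 10.8 CPM in WT and 12.7 CPM in Kif3aΔTub, against 2.51 CPM in WT and 2.58 CPM in Kif3aΔTub in thick ascending limb-like cells. Bbs4, which shares exonic bases with Adpgk on the opposite strand, was past the fold in 0 classes.

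Among the ARL GTPases, Arl3 was lower relative to the median gene in 4 classes and higher in 1. Arl3 releases lipid-modified cargo in the cilium. It was lower in thick ascending limb-like cells, at 174 CPM in WT (556 UMIs, 160.1 to 189) and 129 CPM in Kif3aΔTub (949 UMIs, 121 to 137), with -0.90 (-1.05 to -0.74). It was the member with the most UMIs there, and without it the ratio of the set in that class was 0.08 in place of -0.08. In endothelium-like cells it was at 112 CPM in WT (71 UMIs, 87.5 to 141) and 67.2 CPM in Kif3aΔTub (118 UMIs, 55.6 to 80.5), with -0.76 (-1.20 to -0.31). Both libraries share the endothelium-like clusters, and their intervals did not overlap. Arl3 was also lower relative to the median gene in distal convoluted and connecting tubule-like cells, at -0.57 (-0.78 to -0.36), and in intercalated-like cells, at -0.34 (-0.53 to -0.15). It was higher in principal-like cells, at 0.27 (0.02 to 0.53), where cluster 8 alone gave 0.05 (-0.31 to 0.40). Thinning to 1000 UMIs per cell gave -0.15 (-0.79 to 0.62) there. Arl6 was within 1.5-fold of the median gene in all 6 classes.

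Transition zone genes were higher as a sum in thick ascending limb-like cells, at 0.42 (0.24 to 0.60), and in intercalated-like cells, at 0.25 (0.03 to 0.48), and lower in proximal tubule-like cells, at -0.16 (-0.28 to -0.05). B9d1, a B9-domain member of the MKS module, was above the median gene in all 6 classes. It stood at 24.8 CPM in WT (79 UMIs, 19.6 to 30.9) and 61.5 CPM in Kif3aΔTub (453 UMIs, 56.0 to 67.5) in thick ascending limb-like cells, with 0.84 (0.50 to 1.21), and at 13.0 CPM in WT (41 UMIs, 9.35 to 17.7) and 25.9 CPM in Kif3aΔTub (101 UMIs, 21.1 to 31.5) in intercalated-like cells, with 0.72 (0.19 to 1.29). The libraries' intervals did not overlap in either class. Its level was highest in principal-like cells, at 75.02 CPM in WT and 92.3 CPM in Kif3aΔTub.

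Tmem216, a tetraspan membrane protein of the same module, was higher in intercalated-like cells, at 16.8 CPM in WT (53 UMIs, 12.6 to 22.0) and 30.5 CPM in Kif3aΔTub (119 UMIs, 25.3 to 36.5), with 0.59 (0.12 to 1.09). It shares exonic bases with Cpsf7 on the opposite strand, and whether the counting used strand is not given in the sources used here. Cep290, the linker between the membrane and the microtubules of the gate, was higher in thick ascending limb-like cells, at 20.4 CPM in WT (65 UMIs, 15.7 to 26.0) and 40.3 CPM in Kif3aΔTub (297 UMIs, 35.9 to 45.2), with 0.51 (0.13 to 0.93), and lower in proximal tubule-like cells, at 24.0 CPM in WT and 20.5 CPM in Kif3aΔTub, with -0.42 (-0.66 to -0.20). It overlaps a gene on the other strand as well. The other 6 transition zone members, Nphp4, Rpgrip1l, Tmem67, Tmem231, Mks1 and Tctn1, had no interval that left out the median gene in a class where they were measured. Nphp4, of the NPHP module, reached 20 UMIs over both libraries only in proximal tubule-like and principal-like cells, at 44 and 10 UMIs in the former.

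**Figure D5:**
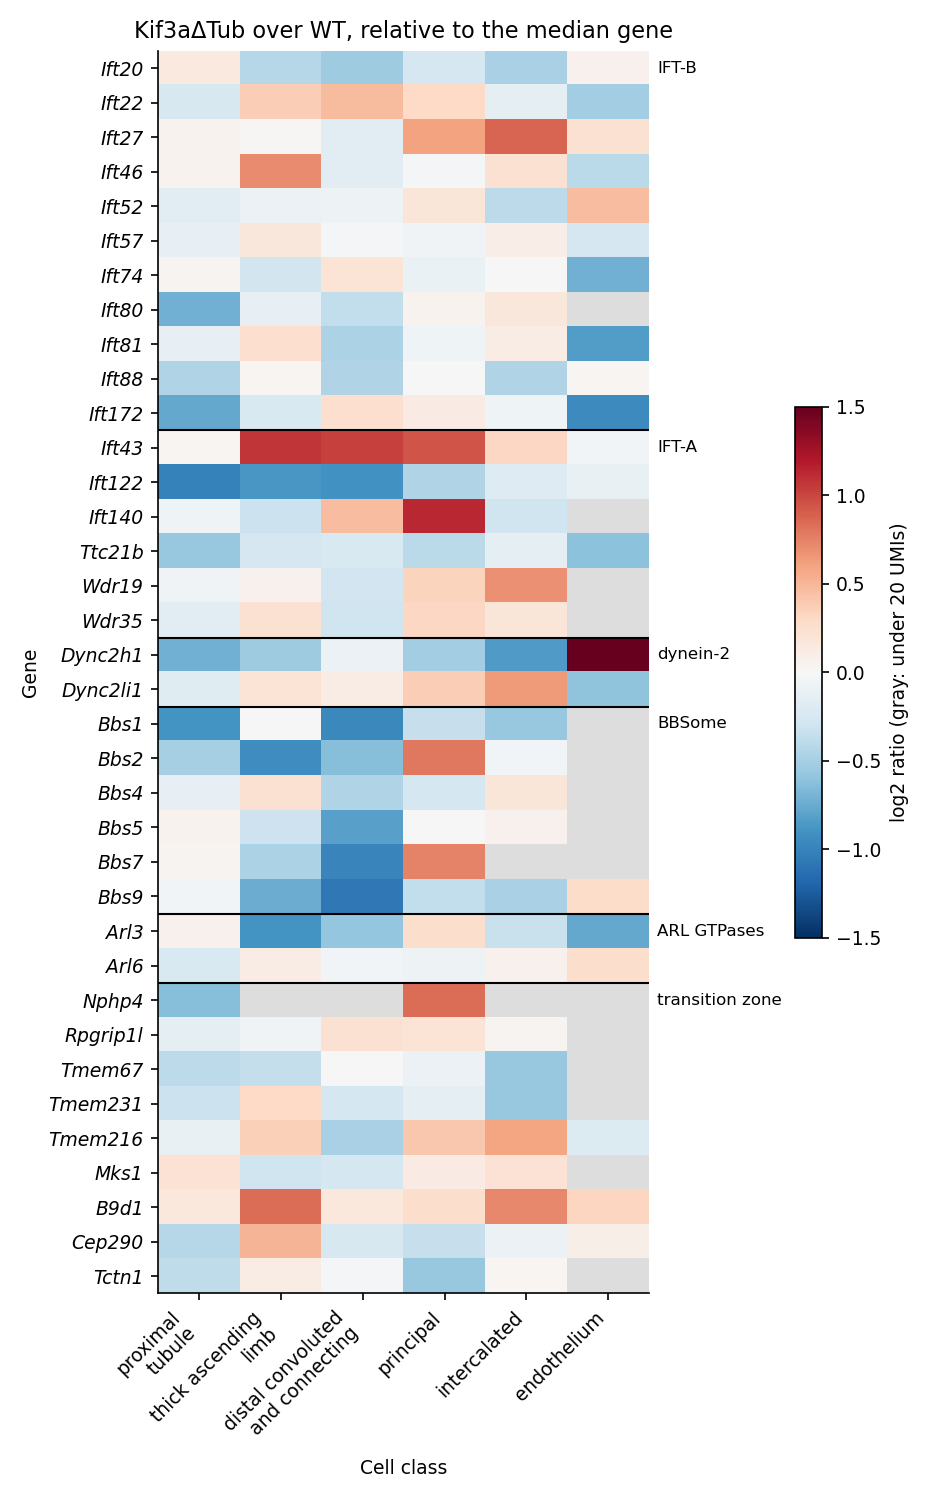
Log2 ratio of 36 of the genes (rows, grouped by complex) in the 6 compared classes (columns), Kif3aΔTub over WT relative to the median gene; red is higher, blue lower, gray is under 20 UMIs over both libraries, and the color scale ends at 1.5 (Dync2h1 in endothelium-like cells, at 1.68 from 2 WT UMIs, lies past it). Ift43 and B9d1 are red in thick ascending limb-like cells, and Ift122 is blue in the first 3 columns.

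Members with and without the core site had similar median ratios. Among members measured in thick ascending limb-like cells, those with it had a median log2 ratio of 0.02 and those without it 0.004. The medians were -0.14 and -0.12 in proximal tubule-like and 0.12 and 0.07 in principal-like cells. In intercalated-like cells the medians were 0.04 and -0.02. There Ift27 was the highest of the members with the core site, at 0.87, and Dync2h1 the lowest, at -0.85. Ift43 does not hold the core site. Rfx1, an RFX factor, was at 10 and 36 UMIs in intercalated-like cells, with 1.23 (0.24 to 2.45), and Rfx3, the family member best known for ciliary genes, was at 16 and 126 UMIs in principal-like cells, with -1.05 (-1.77 to -0.16). Rfx1 and Rfx5 were the other way there, from 2 and 2 WT UMIs, with 1.91 (0.35 to 5.29) and 1.71 (0.14 to 5.08).

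Other genes of the same pathways were counted by the same fold. The proximal tubule-like class had 16.0% of all genes past it higher and 12.8% lower, the thick ascending limb-like class 22.1% and 19.2%, the distal convoluted and connecting tubule-like class 20.2% and 20.0%, and the principal-like class 17.5% and 16.4%. Other transition zone genes in distal convoluted and connecting tubule-like cells numbered 1 higher and 9 lower of 17, with Invs at 8.72 CPM in WT and 4.75 CPM in Kif3aΔTub and Tctn3 at 7.47 CPM in WT and 4.10 CPM in Kif3aΔTub. In thick ascending limb-like cells they numbered 2 higher and 0 lower of 17, and Tmem237, a membrane protein of the gate, was at 11.3 CPM in WT and 31.5 CPM in Kif3aΔTub. Other IFT genes numbered 0 higher and 1 lower of 7 in proximal tubule-like, 0 higher and 1 lower of 7 in thick ascending limb-like and 1 higher and 0 lower of 7 in principal-like cells. Other BBSome and BBS chaperone genes numbered 1 higher and 3 lower of 8 in proximal tubule-like cells. Mkks, a chaperonin-like protein needed to assemble the BBSome, was at 14.1 CPM in WT and 8.69 CPM in Kif3aΔTub in thick ascending limb-like cells, with -1.17 (-1.73 to -0.58), and at 18.1 CPM in WT and 9.21 CPM in Kif3aΔTub in principal-like cells, with -1.03 (-1.67 to -0.25). Among light chains that dynein-2 shares with other dyneins, Dynll1 and Dynll2 differed in opposite directions in thick ascending limb-like cells, at 294 CPM in WT and 839 CPM in Kif3aΔTub and at 149.8 CPM in WT and 90.3 CPM in Kif3aΔTub. The other kinesin-2 subunits Kif3b and Kifap3 were at 19.9 CPM in WT and 25.5 CPM in Kif3aΔTub and at 85.0 CPM in WT and 74.4 CPM in Kif3aΔTub in principal-like cells, within 1.5-fold of the median gene at 0.30 and -0.22.

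Several other measures moved with genotype in the same classes. The shares of all genes past the same fold, higher and lower, were 22.1% and 19.2% in thick ascending limb-like cells. They were 20.2% and 20.0% in distal convoluted and connecting tubule-like and 13.8% and 13.2% in intercalated-like cells. In proximal tubule-like cells they were 16.0% and 12.8%, in principal-like cells 17.5% and 16.4%, and in endothelium-like cells 12.3% and 11.4%. Dissociation stress genes, immediate early and heat shock genes, numbered 18 higher and 0 lower of 20 in thick ascending limb-like, 14 higher and 0 lower of 19 in distal convoluted and connecting tubule-like, 13 higher and 0 lower of 19 in intercalated-like, 12 higher and 1 lower of 17 in proximal tubule-like, 8 higher and 1 lower of 19 in principal-like and 5 higher and 3 lower of 18 in endothelium-like cells. Their summed level in thick ascending limb-like cells, where Ift43 and B9d1 were higher, was 891 CPM in WT and 3578 CPM in Kif3aΔTub. Injured tubule markers (9 genes) stood in the same cells at 470.4 and 7563 CPM, and in principal-like cells at 2131 and 11978 CPM. Macrophage markers (7 genes) ranged from 0.904 to 6.31 CPM over the 6 WT classes and from 25.1 to 39.9 CPM over the Kif3aΔTub classes, with 3 to 6 of the 7 at 0 in WT and 0 or 1 in Kif3aΔTub. Thick ascending limb markers, 6 of 7 of them past 1.5-fold lower, were at 22237 and 9528 CPM in their class. Median mitochondrial shares were 34.3% and 7.21% there, and 14.1% and 7.30% in principal-like cells, where median depths were 6774 and 11188 UMIs. The part of these measures in the members' values was not tested.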

How the data were processed

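Per the labels, the values are raw UMI counts per gene and cell from the 10x Chromium 3′ v3 kit, deposited as filtered matrices without normalization. The submitters' processing notes name Cell Ranger 3.0.2, Seurat 3.1.1 and mm10, while the deposited matrix header names Cell Ranger 3.1.0. Whether counting used strand is not given in the sources used here. Barcodes needed 500 UMIs, 200 genes and a mitochondrial share below 50% to be kept (4371 of 6938 WT and 7236 of 7950 Kif3aΔTub barcodes), and Scrublet, run through scanpy 1.11.5 (Python 3.11.15, igraph 0.11.9), marked 63 (1.44%) and 179 (2.47%) doublets, which were removed. Both libraries were clustered together by Leiden at resolution 1 on 2000 variable genes without the members, giving 32 clusters. A cluster was named from at least 3 markers, each at 50 CPM or more, 20 UMIs or more and 2-fold or more over the median of the other clusters; this rule was written after the clusters were seen, and 2.27% of WT and 15.3% of Kif3aΔTub cells stayed unnamed. UMIs were summed per class and library. Ratios of sums, with 0.5 UMIs added for single genes, were taken relative to the median gene with at least 100 UMIs, with exact Poisson intervals (scipy 1.17.1), and shares of cells have Clopper-Pearson intervals. In simulated thick ascending limb counts over 11194 genes with 200 changed, 95.9% of intervals held the true value and 6.76% of unchanged genes passed 1.5-fold. Both simulated libraries were drawn from the same profile with Poisson noise only. These values therefore check the code and give no rate of false calls between real libraries. The genes named with full values were, per class, up to 6 higher and up to 6 lower with the largest ratio among those with 20 or more UMIs and an interval that left out the median gene. Other pathway lists allowed up to 4 named genes each. TMM scaling used edgeR 4.0.16 in R 4.3.3. Promoter sequences are from RefSeq on GRCm38.p6, and gene positions from GENCODE vM21. The members and lists were chosen with earlier results of these data known. A member counted in the sums and totals is not reported singly here.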

Additional observations from a re-analysis of the deposited data

Results flagged for a closer look

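The ratio of the summed genes, Kif3aΔTub over WT relative to the median gene, was above 0 in principal-like cells and below 0 in the 5 other classes, with an interval that reached 0 in intercalated-like cells, which drew attention to the difference between classes. The principal-like log2 ratio exceeded that of proximal tubule-like cells by 0.26, that of thick ascending limb-like cells by 0.21, that of distal convoluted and connecting tubule-like cells by 0.33 and that of endothelium-like cells by 0.32. With 1 library per genotype, these differences were not tested. In the principal-like cluster that both libraries share, the log2 ratio was -0.11, so the 4 differences rest on cluster 23, which held 9 WT and 984 Kif3aΔTub cells.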

How the results depend on the processing

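Of the log2 ratios of the set under the alternatives, 53 kept their direction and stayed within the counting interval, 11 moved beyond it and 7 whose interval had left out the median gene changed sign (the intercalated-like set, whose interval held it, also turned positive without centring, when thinned and without Ift20); of the counts of members, 134 stayed within 1.5 times and 56 did not; of the ratios of named members, 573 stayed, 43 moved and 12 changed sign. Causes were not tested. Without centring, the set was at 0.077 in proximal tubule-like, 0.38 in thick ascending limb-like, 0.32 in distal convoluted and connecting tubule-like and 0.20 in intercalated-like cells, with 2, 0, 0 and 0 members lower and, in the thick ascending limb-like and distal convoluted and connecting tubule-like classes, 13 and 9 higher; Ift20 in thick ascending limb-like cells was at 0.030. Totals without mitochondrial and top 50 genes put the thick ascending limb-like set at 0.029 and 1 principal-like member lower. TMM scaling put the proximal tubule-like set at -0.19 with 0 members higher. Leaving out Arl3 put the thick ascending limb-like set at 0.081, and leaving out Ift20 put the intercalated-like set at 0.026.

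Thinned to 1000 UMIs per cell, the set was at -0.028 in proximal tubule-like, -0.58 in distal convoluted and connecting tubule-like, 0.22 in principal-like and 0.18 in intercalated-like cells; 2 and 3 members were higher in the first 2 of these, 3 lower in principal-like cells, and 0 higher and 2 lower in endothelium-like cells. Single members then stood at 0.10 (Ift122, proximal tubule-like), 0.81 (Dync2h1, thick ascending limb-like), 0.15, -0.15 and -0.72 (Ift20, Arl3 and Ift27, principal-like) and 0.18 (Dync2h1, intercalated-like). The intervals of all these thinned ratios held the median gene. With 1000 or more UMIs per cell the proximal tubule-like set was at -0.079, with 1 principal-like and 2 intercalated-like members lower. A mitochondrial limit of 25% gave 0 higher in proximal tubule-like cells, 5 higher and 13 lower in distal convoluted and connecting tubule-like cells, 1 lower in principal-like cells and 1 higher and 2 lower in intercalated-like cells, with Ift20 at -0.021 in proximal tubule-like cells.

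Keeping doublets put the endothelium-like set at 0.011 with 5 higher and 3 lower, and gave 0 higher in proximal tubule-like and 2 higher in distal convoluted and connecting tubule-like cells. Clustering at resolution 2 gave 0 higher in proximal tubule-like cells and an intercalated-like set at -0.13 with 2 higher and 4 lower; resolution 0.5 gave 2 higher and 2 lower in distal convoluted and connecting tubule-like cells and no value for principal-like cells (10 WT and 1723 Kif3aΔTub cells). Separate clustering of the libraries gave 3 lower in intercalated-like cells. A pseudocount of 1 gave 1 lower in principal-like cells. A minimum of 1 UMI gave 2 lower in intercalated-like and 10 lower in endothelium-like cells. A minimum of 50 UMIs gave 2 lower in distal convoluted and connecting tubule-like cells and 0 higher and 2 lower in endothelium-like cells, and a minimum of 100 gave 2 lower in thick ascending limb-like, 1 lower in distal convoluted and connecting tubule-like, and 0 higher and 1 lower in endothelium-like cells. At a fold of 2, the proximal tubule-like class had 0 members higher and 1 lower, the thick ascending limb-like class 2 and 0, and the intercalated-like class 0 and 0, with 1 lower in distal convoluted and connecting tubule-like, 1 higher in principal-like and 0 lower in endothelium-like cells.

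These alternatives were chosen after seeing the data: the ratios of named members, the shared clusters and the split of WT proximal tubule clusters. In shared clusters the proximal tubule-like set was at -0.012 with 4 higher and the principal-like set at -0.11 with 0 higher and 3 lower. There Bbs1 stood at 0.34 (-5.61 to 2.64) in proximal tubule-like cells, from 10 WT and 1 Kif3aΔTub UMIs. Ift80 stood at 1.56 (-1.96 to 3.73) in the same cells, from 7 and 2 UMIs. Both had too few UMIs to compare. Ift43 was at -0.12 (-0.65 to 0.41) in principal-like cells. Against WT clusters led by Slc5a12, 0 proximal tubule-like members were higher and 11 lower. Against the other large WT clusters the set was at -0.056 with 3 lower, and Ttc21b was at 0.21 (-0.25 to 0.68). No paired analysis was possible because each genotype has 1 library. Members with few UMIs limit what depth can show: a difference within its interval was not detectable at this depth.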
